A study of Homo sapiens with 6 samples.

Results

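The intraflagellar transport (IFT), BBSome and transition zone genes are the genes for the machinery that builds the primary cilium and controls what enters and leaves it. IFT trains carry cargo along the ciliary axoneme, outward with kinesin-2 and the IFT-B complex and back with dynein-2 and the IFT-A complex. The BBSome is a coat-like complex that rides on these trains and moves membrane receptors out of the cilium. The transition zone is the gate at the ciliary base, where rows of Y-shaped links hold back membrane and soluble proteins. RPE1 cells are widely used to study this machinery, because they make a primary cilium when they leave the cell cycle.

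The 50 genes were taken by name from lists of these complexes, 21 as IFT genes, 10 as BBSome genes and 19 as transition zone genes, out of 60666 genes in the table once alternative contigs were set aside. The list used no measured value. All 50 genes passed the filter on low values, a mean of at least 1 FPKM (fragments scaled to transcript length and to all mapped fragments) over all samples, which 12025 genes passed.

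The samples were hTERT-RPE1 cells, a telomerase-immortalized human retinal pigment epithelial line, carrying a lentiviral Tet-On short hairpin RNA against OFD1, labelled hTERT-RPE1-TOShOFD1 with WT genotype. OFD1 is a protein of centrioles and centriolar satellites. The 3 control samples grew without doxycycline and the 3 OFD1-depleted samples with 200 ng/mL doxycycline, each for 72 hours, in medium with serum, and all 6 carried the hairpin cassette. No samples had doxycycline without the hairpin, so an effect of doxycycline and an effect of OFD1 loss cannot be told apart. Whether the line is a single clone is not given in the sources used here.

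The question was which of the ciliary machinery genes differed between RPE1 cells that keep OFD1 and cells that have lost it. OFD1 itself was between 3.34 and 3.62 FPKM in control and between 0.763 and 1.43 FPKM in OFD1-depleted cells. The groups did not overlap, and its log2 fold change was -1.75 (limma adjusted p = 0.00085, and exact permutation p = 0.1, the lowest value this design can reach). The labels give the tissue as retina, and an extraction text speaks of frozen retinas, while the cell line field and the methods give hTERT-RPE1. Among 12 photoreceptor and neural retina markers, 6 were at 0 in all samples, including CRX, and 1, GLUL, was above the filter and fell by 0.83 on the log2 scale (adjusted p = 0.00804). Of 11 retinal pigment epithelium markers only MITF and OTX2 passed the filter, RPE65 stayed at or below 0.209 FPKM, and DCT and TTR were at 0. KRT8 and KRT18 were high (146 and 116 FPKM in control), CDH1 was near 0, and the mesenchymal filament VIM was at 4288 FPKM.

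Some facts of the whole table touch every result on these genes. The summed FPKM was 408302 to 414547 in control and 433262 to 493510 in OFD1-depleted samples, and genes of the mitochondrial genome took 8.66% to 13.8% and 15.6% to 19.3% of it. All 10 cycling cell markers fell, with a median log2 fold change of -1.31, and the smallest p-values were those of RRM2 (-2.14), BUB1 (-1.54) and MCM2 (-1.50). These are bulk samples, so from these values alone fewer cycling cells and less RNA per cell cannot be told apart. In its inducible line, the paper reports that OFD1 depletion by doxycycline inhibited proliferation. The summed level of the 10 markers was 494 to 565 FPKM in control and 220 to 238 FPKM in OFD1-depleted samples. Its part in the results on ciliary genes was not tested. The 6 fibroblast markers summed to 4320 to 4594 FPKM in control and 3738 to 4007 FPKM in OFD1-depleted samples. VIM made up most of this sum, with means of 4288 and 3763 FPKM, and did not pass (limma adjusted p = 0.474). COL1A1 rose (1.48) and THY1 fell (-1.03), while COL1A2 was below the filter. OFD1-depleted replicate 2 stood apart from the other 2 OFD1-depleted samples. It was the lowest of the 3 in 33 of the 50 genes and in 48.1% of all genes tested, and the median log2 difference of the 50 genes from the control mean was 0.25, -0.03 and 0.12 in OFD1-depleted replicates 1, 2 and 3. BEST1, a channel of the retinal pigment epithelium, was at 4.33 FPKM in this library and at most 0.0475 FPKM in every other sample. Results on the 50 genes that rest on this library are given with and without it.

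Promoter sequence was available for 45 of the 50 genes in a RefSeq table on GRCh38.p14, from 250 bases before to 50 bases after each annotated start. Many ciliary genes are known to carry an X-box, an imperfect inverted repeat recognised by transcription factors of the RFX family. A full X-box without mismatch, searched on both strands, stood in 7 of the 45 promoters (15.6%), against 1.61% of 27305 promoters in the table and 2.05% of those of genes tested. The 7 genes were 2 of 19 IFT genes, 0 of 9 BBSome genes and 5 of 17 transition zone genes. The windows that follow show these matches in capitals, because the share with a match stood above that of the whole table. They are written 5′ to 3′ on the strand of the gene, and the match in B9D1 reads as an X-box on the opposite strand.
IFT57, chr3:108222395-108222454, minus strand: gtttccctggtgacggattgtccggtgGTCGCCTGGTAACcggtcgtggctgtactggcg
IFT122, chr3:129440188-129440250, plus strand: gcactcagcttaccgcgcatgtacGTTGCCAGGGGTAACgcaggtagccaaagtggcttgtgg
TCTN3, chr10:95694106-95694166, minus strand: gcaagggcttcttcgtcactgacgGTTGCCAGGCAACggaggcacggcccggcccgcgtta
TCTN1, chr12:110614099-110614158, plus strand: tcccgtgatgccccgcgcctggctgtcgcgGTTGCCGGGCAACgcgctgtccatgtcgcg
TMEM107, chr17:8176388-8176449, minus strand: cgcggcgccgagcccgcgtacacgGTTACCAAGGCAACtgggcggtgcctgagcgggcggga
B9D1, chr17:19378069-19378130, minus strand: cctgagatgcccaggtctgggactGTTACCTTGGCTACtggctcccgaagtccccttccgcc
B9D2, chr19:41364120-41364181, minus strand: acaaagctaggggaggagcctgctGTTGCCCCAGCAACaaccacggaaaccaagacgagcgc

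The shorter motif GTTGCC, a common form of either arm of the repeat, searched on both strands, stood in 21 of the 45 promoters (46.7%), against 14.6% of the table and 17.1% of genes tested. It overlaps the X-box, and 5 promoters held both. Of the 6 genes that passed the test, 5 had a GTTGCC in the promoter (DYNC2LI1, IFT46, TTC8, TULP3 and TMEM107), and TMEM107 was the 1 with a full X-box. The GTTGCC matches of the other 4 are shown in capitals because these genes moved in both directions. In DYNC2LI1 the match lies on the opposite strand. RefSeq starts can lie inside the gene span that the table gives, as they do for IFT46, TULP3 and TTC8.
DYNC2LI1, chr2:43774001-43774060, plus strand: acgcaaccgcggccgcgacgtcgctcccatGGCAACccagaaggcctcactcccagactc
IFT46, chr11:118566098-118566157, minus strand: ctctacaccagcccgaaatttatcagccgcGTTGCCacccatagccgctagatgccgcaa
TULP3, chr12:2890821-2890880, plus strand: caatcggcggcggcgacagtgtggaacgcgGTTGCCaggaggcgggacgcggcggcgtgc
TTC8, chr14:88824587-88824646, plus strand: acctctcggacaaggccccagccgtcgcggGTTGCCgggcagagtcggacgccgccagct

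Promoters of cell cycle genes often carry other elements. TTTGAA, the core of the CHR element, stood in 3 of the 45 promoters (6.67%, against 13.6% of genes tested), in IFT80, MKKS and TTC8. The E2F-like motif TTTNNCGC stood in 3 (6.67%, against 13.7%), in ARL6, CLUAP1 and MKS1. The median log2 fold change was 0.06 over the 7 genes with an X-box and 0.13 over the 38 without. For GTTGCC it was 0.03 over the 21 genes with a match and 0.15 over those without.

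All 50 genes were expressed in control cells, from 1.32 FPKM for ARL6 to 32.4 FPKM for TCTN3, with a median of 5.08 FPKM, below the 8.73 FPKM of all genes tested. Of them, 11 were over 10 FPKM and 6 under 2 FPKM (TTC21B, ARL6, TMEM67, TMEM216, INVS and RPGR). FPKM is divided by transcript length, so levels can be set side by side between genes. Within a complex the levels were far apart. IFT43 was at 9.55 ± 1.03 FPKM (SD, n = 3) and TTC21B, in the same IFT-A complex, at 1.45 ± 0.357 FPKM. Dynein-2 showed the same kind of spread, with its light intermediate chain at 8.02 ± 0.640 FPKM and its heavy chain at 3.13 ± 0.275 FPKM.

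**Figure D1:**
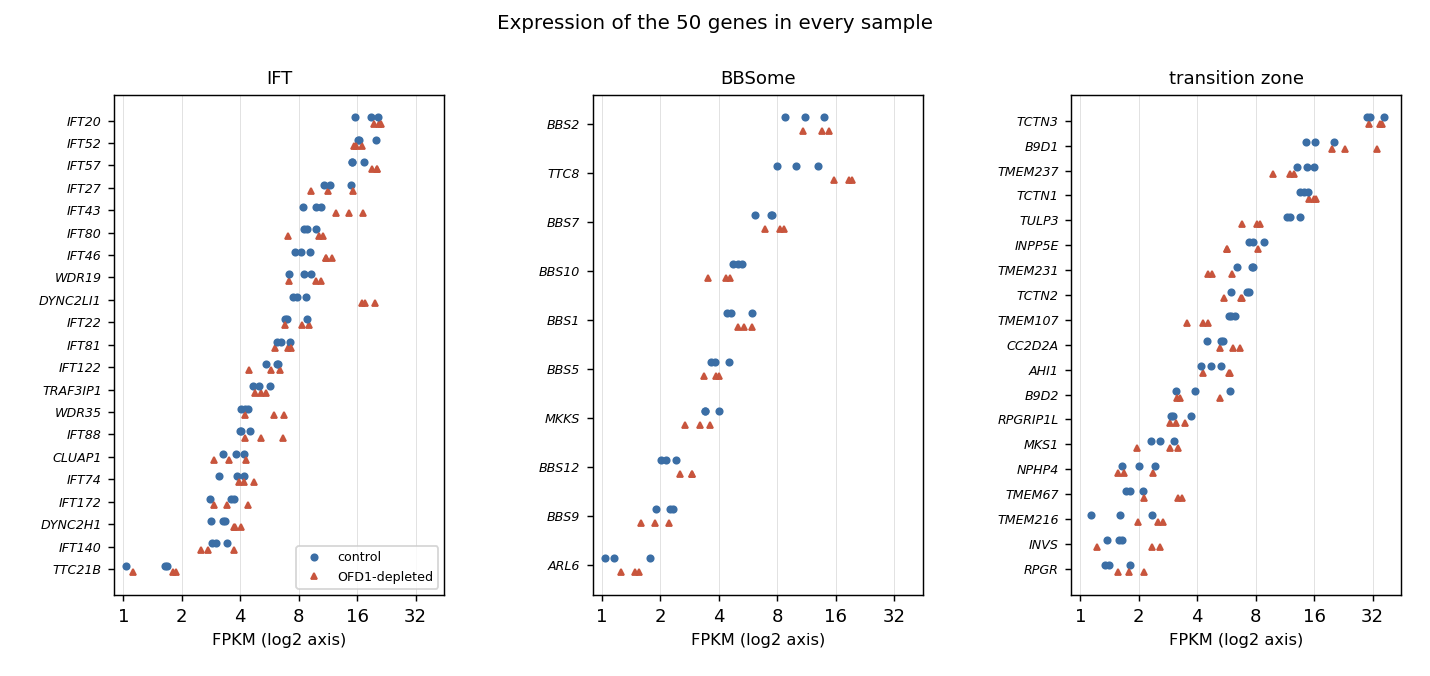
Level of each of the 50 genes in every sample (FPKM, log2 axis), ordered within IFT, BBSome and transition zone genes by control mean, with circles for 3 control and triangles for 3 OFD1-depleted samples. The groups overlap in 36 genes, and DYNC2LI1 is well separated, with controls up to 8.74 FPKM and OFD1-depleted samples from 16.9 FPKM.

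Most of the 50 genes did not pass the test between control and OFD1-depleted cells. By limma on log2(FPKM + 0.1), a scale that understates the change of low genes, 4 genes rose (8%), against 5.07% of all genes tested, and 2 fell (4%), against 11.9%. DYNC2LI1, IFT43, IFT46 and TTC8 rose, and TULP3 and TMEM107 fell. The other 44 had an adjusted p of 0.05 or more. The paper calls the replicates biological, and the labels do not say whether they came from separate cultures. The p-values set each difference against the spread between these samples, which may leave out variation between cultures.

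Values of the 2 groups did not overlap in 14 genes, 9 of them higher in OFD1-depleted cells (18%, against 13.8% of genes tested) and 5 lower (10%, against 22.3%). The median log2 fold change was 0.11 over the 50 genes and -0.03 over all genes tested. With all samples scaled to the same total (TPM) both moved down, to -0.03 and -0.18, so the sign of the genes' median depends on the scaling while its place above the median of all genes does not. IFT genes had a median of 0.13, BBSome genes 0.13 and transition zone genes -0.01.

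**Figure D2:**
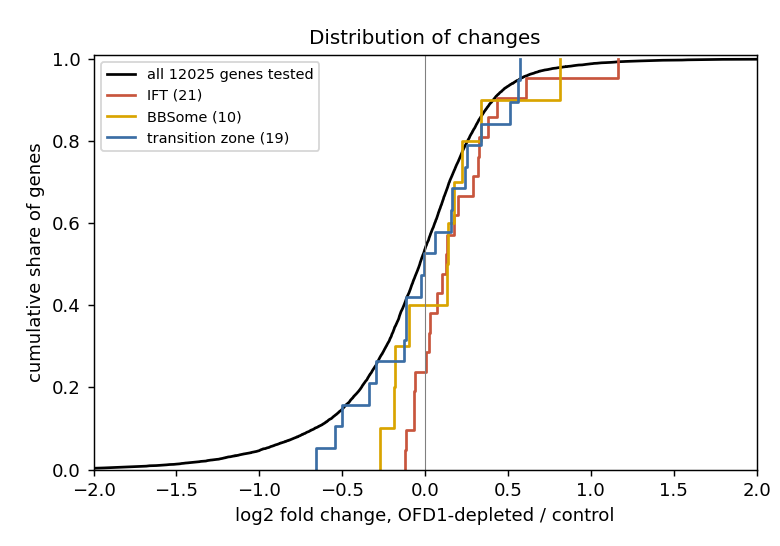
Cumulative share of genes against log2 fold change (OFD1-depleted over control) for all 12025 genes tested and for the IFT (21), BBSome (10) and transition zone (19) genes. The IFT and BBSome curves stop at -0.12 and -0.27 on the left, and the transition zone curve reaches -0.66.

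The error of each fold change sets what could be seen. The median standard error was 0.17 on the log2 scale for the 50 genes and 0.17 for all genes tested, and 11 of the 50 genes (22%) had an unadjusted p under 0.05, against 3677 of all genes tested (30.6%). For 28 genes the fold change was under 0.2 in size, and for 17 the 95% interval lay within -0.5 and 0.5. For the others the interval reached beyond 0.5 in at least 1 direction.

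**Figure D3:**
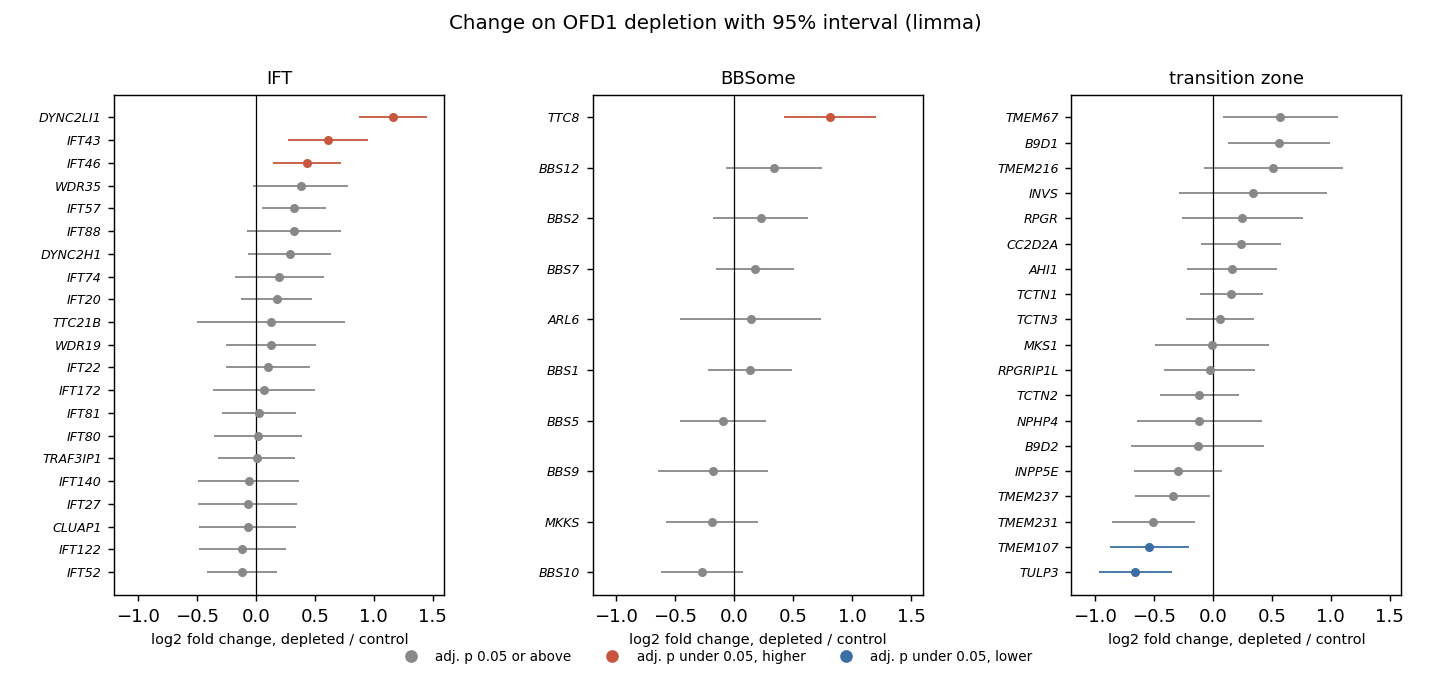
Log2 fold change of each of the 50 genes (OFD1-depleted over control) with its 95% interval from limma, in order of size within each group. Red marks the 4 genes that rose, blue the 2 that fell, and grey the 44 that did not pass the test.

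Among the 50 genes, the largest change was in a subunit gene of the retrograde motor. DYNC2LI1 (ENSG00000138036, GRCh38 chromosome 2, 43774039 to 43810010, plus strand) encodes the light intermediate chain that stabilises the dynein-2 heavy chain. It was at 7.52, 8.74 and 7.80 FPKM in control replicates 1 to 3 and at 17.6, 19.7 and 16.9 FPKM in OFD1-depleted replicates 1 to 3. Every OFD1-depleted sample was far above every control. The mean went from 8.02 ± 0.640 to 18.1 ± 1.43 FPKM (SD over the 3 samples of a group), 2.25 times control, with a log2 fold change of 1.16 (standard error 0.132, limma adjusted p = 0.000174).

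DYNC2H1, the heavy chain that does the motor work, was at 3.33, 2.82 and 3.24 FPKM in control and 4.03, 3.77 and 3.71 FPKM in OFD1-depleted samples. The groups did not overlap, but the fold change of 0.29 did not pass (95% interval -0.07 to 0.64, limma adjusted p = 0.256). Within each sample, the ratio of DYNC2LI1 to DYNC2H1 was 2.26, 3.10 and 2.40 in control and 4.37, 5.22 and 4.56 in OFD1-depleted cells. This ratio does not depend on how the samples are scaled.

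The wider motor list, chosen with the data known, held 11 tested genes of kinesin-2 and other dynein-2 subunits. Of these, 2 fell and none rose (median 0.09), where 11.9% of all genes tested fell and 5.07% rose. KIF3A, a motor subunit of heterotrimeric kinesin-2 that drives outward transport, fell from 3.68 ± 0.345 to 1.80 ± 0.360 FPKM (log2 fold change -1.01, limma adjusted p = 0.00567). Its partner KIF3B was at 12.9 ± 0.329 and 12.7 ± 2.91 FPKM and did not pass (adjusted p = 0.890), so that the ratio of KIF3A to KIF3B went from 0.286 ± 0.0329 to 0.143 ± 0.0193. DYNLL2, a light chain shared by several dyneins and other complexes, fell from 10.5 ± 0.481 to 5.64 ± 0.322 FPKM (-0.89, adjusted p = 0.000933). The motor genes that passed thus included the DYNC2LI1 chain, which rose, and KIF3A and DYNLL2, which fell.

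IFT-A, the complex that works with dynein-2 on the way back and carries membrane proteins in, had 1 of its 6 listed genes pass. That gene rose (16.7%, against 5.07% of all genes tested). IFT43 (ENSG00000119650, chromosome 14, 75902136 to 76084585, plus strand), a small subunit of the complex, was at 9.84, 10.4 and 8.40 FPKM in control and 14.6, 17.2 and 12.4 FPKM in OFD1-depleted samples. The groups were apart, and the OFD1-depleted samples were more spread. It rose by 0.61 on the log2 scale (standard error 0.155, limma adjusted p = 0.0199). The call was lost without control replicate 1 (adjusted p = 0.0586), control replicate 3 (0.103) or OFD1-depleted replicate 1 (0.0515), at the same total per sample (0.47, adjusted p = 0.051) and without the filter on low values (0.0885). IFT43 overlaps TTLL5 on the same strand by 52944 bases, and TTLL5 was at -0.10 (adjusted p = 0.678).

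The other IFT-A genes overlapped between groups. WDR35 was at 4.25, 4.37 and 4.04 FPKM in control and 6.68, 4.22 and 5.95 FPKM in OFD1-depleted samples, where replicate 2 lay among the controls. Its fold change of 0.38 did not pass (adjusted p = 0.186), and without OFD1-depleted replicate 2 it was 0.57 (adjusted p = 0.0124). WDR19 was at 0.13, TTC21B at 0.13, IFT140 at -0.06 and IFT122 at -0.11. Against IFT140, a core subunit, IFT43 was at ratios of 2.89, 3.62 and 2.81 in control and 3.91, 6.27 and 4.94 in OFD1-depleted samples, which did not overlap.

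IFT-B, the outward-moving complex, had 1 of its 13 listed genes pass, with a median of 0.07. That gene rose (7.69%, against 5.07% of all genes tested). IFT46 (ENSG00000118096, chromosome 11, 118544528 to 118572970, minus strand), a core subunit known for carrying outer dynein arms in algal flagella, was at 8.23, 9.15 and 7.70 FPKM in control and 11.05, 11.03 and 11.87 FPKM in OFD1-depleted samples. The groups were apart with little spread. It rose by 0.43 (standard error 0.132, limma adjusted p = 0.0437), close to the threshold. The call held without OFD1-depleted replicate 2 and was lost without any other sample, with adjusted p of 0.167, 0.0543 and 0.197 without control replicates 1, 2 and 3, and 0.0787 and 0.125 without OFD1-depleted replicates 1 and 3. It was also lost at the same total per sample (log2 fold change 0.29, adjusted p = 0.208; 0.38 and 0.113 with mitochondrial genes left out of the total), without the filter on low values (0.0693) and without the variance trend (0.0614).

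The other core genes gave smaller values. IFT88, the subunit whose loss is widely used to remove cilia, was at 4.05, 4.50 and 3.99 FPKM in control and 6.61, 4.23 and 5.15 FPKM in OFD1-depleted samples, again with replicate 2 among the controls. It was at 0.32 with all samples (adjusted p = 0.257) and at 0.47 without OFD1-depleted replicate 2 (0.0481). IFT74 and IFT81, which together bind tubulin, were at 0.20 and 0.03. The small GTPases IFT22 and IFT27 were at 0.10 and -0.07, and IFT52 was at -0.12.

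Among the peripheral IFT-B genes, IFT20 and IFT57 had the highest levels. IFT20, which also works at the Golgi, was at 15.5, 20.4 and 18.9 FPKM in control and 20.8, 21.3 and 19.5 FPKM in OFD1-depleted samples, which overlapped (0.18, limma adjusted p = 0.428). IFT57 was at 15.1, 17.4 and 15.0 FPKM in control and 20.2, 20.2 and 19.0 FPKM in OFD1-depleted samples, which did not overlap (0.32, standard error 0.125, adjusted p = 0.102). TRAF3IP1, IFT80, IFT172 and CLUAP1 were at 0.01, 0.02, 0.07 and -0.07. Of 3 further IFT-B genes tested (HSPB11, TTC26 and TTC30B), none passed.

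The BBSome had 1 of 10 listed genes pass, a rise (10%, against 5.07% of all genes tested). TTC8 (ENSG00000165533, chromosome 14, 88824153 to 88881078, plus strand), a scaffold subunit rich in tetratricopeptide repeats, was at 8.02, 13.0 and 9.95 FPKM in control and 19.3, 15.7 and 18.8 FPKM in OFD1-depleted samples. The controls were spread, yet the highest lay below the lowest OFD1-depleted sample. Its mean went from 10.3 ± 2.53 to 17.9 ± 1.99 FPKM (SD over 3 samples each), a rise of 0.81 (standard error 0.179, limma adjusted p = 0.0098). Without the filter on low values the adjusted p was 0.0824.

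BBS2 had the highest mean level of the 10 BBSome genes in control cells, at 8.77, 11.2 and 14.0 FPKM in control and 14.7, 10.9 and 13.6 FPKM in OFD1-depleted samples. These overlapped, at 0.22 (adjusted p = 0.454). BBS7 and BBS1 were at 0.17 and 0.13, BBS5 at -0.10 and BBS9 at -0.18. Relative to BBS7, which sits with BBS2 in the core of the complex, TTC8 was at 1.08, 1.74 and 1.61 in control and 2.23, 2.27 and 2.28 in OFD1-depleted samples.

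The chaperonin-like genes MKKS, BBS10 and BBS12 encode proteins that help assemble the BBSome. BBS12 was at 2.15, 2.01 and 2.40 FPKM in control and 2.91, 2.54 and 2.92 FPKM in OFD1-depleted samples (0.34, limma adjusted p = 0.245). BBS10 was at 5.27, 4.997 and 4.76 FPKM in control and 4.57, 3.52 and 4.38 FPKM in OFD1-depleted samples (-0.27, adjusted p = 0.276). Neither passed, though their groups did not overlap, the first higher and the other lower in OFD1-depleted cells. MKKS was at -0.19, and ARL6, the small GTPase that recruits the BBSome to membranes, was at 1.32 ± 0.399 and 1.43 ± 0.153 FPKM (0.14).

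Outside the 10, a list of 4 other BBSome genes held a larger fall than any of the 50. BBIP1, a small subunit of the complex, was at 6.86, 10.3 and 6.54 FPKM in control and 1.72, 2.11 and 2.31 FPKM in OFD1-depleted samples, 0.260 of control (log2 fold change -1.87, limma adjusted p = 0.000134). It was the 1 gene of the 4 to pass, where 11.9% of all genes tested fell. BBS4 was at 0.02 and LZTFL1, which holds the BBSome back from entering cilia, at -0.07. The ratio of TTC8 to BBIP1 went from 1.17, 1.27 and 1.52 in control to 11.2, 7.42 and 8.14 in OFD1-depleted samples.

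Of the 19 transition zone genes, 2 fell (10.5%, against 11.9% of all genes tested) and none rose. TULP3 (ENSG00000078246, chromosome 12, 2877223 to 2941138, plus strand) is listed with these genes for its role in ciliary entry, as the adaptor that links IFT-A to phosphoinositides and receptors. It was at 12.0, 13.5 and 11.6 FPKM in control and 8.16, 6.79 and 8.44 FPKM in OFD1-depleted samples. All OFD1-depleted samples lay below all controls. TULP3 fell to 63.3% of control, by 0.66 on the log2 scale (standard error 0.141, limma adjusted p = 0.00877). It overlaps RHNO1 on the same strand by 12302 bases, and RHNO1 was at -0.41 (adjusted p = 0.081). INPP5E, the ciliary phosphoinositide phosphatase, was at 7.95 ± 0.739 and 6.53 ± 1.43 FPKM (-0.30, adjusted p = 0.266).

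TMEM107 (ENSG00000179029, chromosome 17, 8172457 to 8176399, minus strand) is a membrane protein of the MKS module, the part of the gate that sits in the ciliary membrane. It was at 6.28, 5.80 and 5.96 FPKM in control and 4.53, 4.29 and 3.55 FPKM in OFD1-depleted samples, with no overlap. It fell to 68.5% of control, by 0.54 (standard error 0.153, limma adjusted p = 0.0326). The call was lost without any single control (adjusted p of 0.143, 0.073 and 0.113 without replicates 1, 2 and 3) and without OFD1-depleted replicate 3 (0.118), under quantile normalization (-0.42, adjusted p = 0.0594) and without the filter on low values (0.0776).

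Other tetraspan and membrane genes of the module went either way. TMEM231 was at 7.73, 7.67 and 6.38 FPKM in control and 6.01, 4.56 and 4.75 FPKM in OFD1-depleted samples (-0.50, limma adjusted p = 0.0524). TMEM237 was at 14.7, 15.9 and 13.1 FPKM in control and 12.6, 9.86 and 12.0 FPKM in OFD1-depleted samples (-0.34, adjusted p = 0.133). Both were lower without overlap and did not pass. TMEM231 passed in 5 of the 18 alternatives. Among these were the fit without OFD1-depleted replicate 1 (-0.62, adjusted p = 0.0311) and the same total per sample (-0.65, adjusted p = 0.0295).

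TMEM67, or meckelin, a receptor-like protein of the gate, was at 2.11, 1.71 and 1.81 FPKM in control and 3.34, 2.13 and 3.19 FPKM in OFD1-depleted samples. The lowest OFD1-depleted sample, replicate 2, lay just above the highest control. Its fold change was 0.57 (standard error 0.221, adjusted p = 0.102) with all samples and 0.77 (adjusted p = 0.0145) without that library. TMEM216 was at 0.51 with overlapping groups (adjusted p = 0.227).

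The B9 domain proteins B9D1, B9D2 and MKS1 form a soluble complex of the module. B9D1 was at 14.4, 20.1 and 16.2 FPKM in control and 23.0, 33.6 and 19.7 FPKM in OFD1-depleted samples, where replicate 2 was the highest and replicate 3 fell below control replicate 2. It was at 0.56 (standard error 0.198, limma adjusted p = 0.0765), at 0.34 without OFD1-depleted replicate 2 (adjusted p = 0.134) and at 0.73 without OFD1-depleted replicate 3 (0.0393). B9D2 and MKS1 were at -0.13 and -0.01.

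The tectonics, which help form the gate and are needed for Hedgehog signalling, all had small values. TCTN3, the gene with the highest level of the 50, was at 29.9, 36.4 and 31.0 FPKM in control and 35.7, 30.6 and 35.0 FPKM in OFD1-depleted samples, which overlapped (0.06, 95% interval -0.23 to 0.35, limma adjusted p = 0.800). TCTN1 was at 14.1 ± 0.699 and 15.8 ± 0.7001 FPKM (0.16, adjusted p = 0.425) and did not overlap between groups. TCTN2 was at -0.11, CC2D2A, a scaffold of the module, at 0.24, and AHI1 at 0.16.

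None of the 4 listed genes of the NPHP module and its partners passed. INVS, or inversin, was at 1.58, 1.63 and 1.37 FPKM in control and 2.59, 1.22 and 2.35 FPKM in OFD1-depleted samples, where replicate 2 was below all controls. It was at 0.34 (adjusted p = 0.462) with all samples and at 0.66 (adjusted p = 0.0426) without OFD1-depleted replicate 2. RPGR was at 0.25, RPGRIP1L at -0.03 and NPHP4 at -0.11. Among transition zone genes outside the 19, CEP290, a long protein that ties microtubules to the gate membrane, was at 3.99 ± 0.0836 and 3.04 ± 0.257 FPKM (-0.38, adjusted p = 0.124).

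A list of lipidated cargo transport and ciliary membrane genes had 12 tested genes. Of these, 3 fell and none rose (median -0.20), where 11.9% of all genes tested fell and 5.07% rose. ARL2BP, a binding partner of ARL2 and ARL3 at the ciliary base, fell from 33.0 ± 6.67 to 9.35 ± 1.18 FPKM (-1.80, limma adjusted p = 4.35e-05). ADCY3, the adenylyl cyclase found in many primary cilia, fell from 8.93 ± 0.859 to 4.47 ± 0.857 FPKM (-0.998, adjusted p = 0.00236). PKD2, a ciliary cation channel, fell from 23.7 ± 1.43 to 15.2 ± 2.61 FPKM (-0.65, adjusted p = 0.0128), a call lost without control replicate 1 (0.0647).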

How the data were processed

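RNA-seq was measured in 6 samples of 1 cell line, 3 per group, grouped by the labels. The authors aligned paired-end reads from directional libraries with HISAT2 (2.0.5 in the submitters' processing notes) against GRCh38 with Ensembl annotation (version 94), and the deposited values are FPKM per gene from StringTie. The strand setting is not given in the sources used here. The table had 67130 rows, of which 6464 on alternative contigs, all at 0, were left out, and no read counts. Low values of single-exon genes lay on whole steps too rarely (18.7% to 21.1%, tolerance 0.02) to recover reads. They gave a rough depth of 37500000 to 44000000 fragments, unused in tests, so no counting intervals are given.

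Genes averaging 1 FPKM or more were tested on log2(FPKM + 0.1) with limma 3.58.1 in R 4.3.3 (moderated test with a variance trend, two-sided, Benjamini-Hochberg over 12025 genes, threshold 0.05). The scripts were tested on simulated data. All 50 genes are named. Values of every sample are given for those past the threshold, the 3 largest changes and the 2 highest levels of each group, and for some further genes (DYNC2H1, WDR35, IFT88, TMEM231, TMEM237 and INVS) that were chosen after their values were seen. Other lists give genes past the threshold, up to 3 by p, and some genes of these lists are not reported here. The genes and lists were chosen with earlier results of these data known. Alternatives were 17 planned and 1 added after seeing the data (the same total without mitochondrial genes). Motifs were exact matches. Figures were drawn with Python 3.11.15 and matplotlib 3.10.9.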

Additional observations from a re-analysis of the deposited data

How the results depend on the processing

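DYNC2LI1 and TULP3 kept their calls in all 18 alternatives, TTC8 in 17, IFT43 in 13, TMEM107 in 12 and IFT46 in 8. Without a filter on low values, 28501 genes were tested, 1083 passed (823 lower, 260 higher) and 1 of the 50 genes fell and 1 rose. At the same total per sample (TPM) 268 genes rose in all, 2 of the 50 rose, and the medians of the IFT and transition zone genes were -0.018 and -0.15, with lower calls at 88.1% of calls against 70.1%. Quantile normalization gave 1093 genes higher (54.5% lower), 1 of the 50 lower, 8 higher, and a BBSome median of 0.28, and median-of-ratios scaling 60.3% lower. Array weights gave 3956 genes (2263 lower, 1693 higher) and 12 of the 50 higher. With each sample left out in turn, genes changed ranged from 1138 to 2863, lower from 882 to 1766, higher from 252 to 1097, the 50 genes lower from 1 to 3 and higher from 2 to 8, with 8 higher without OFD1-depleted replicate 2.

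The labels number replicates alike in both groups. Deviations of same-numbered samples correlated at 0.06, 0.05 and 0.01 across genes, and those of differently numbered samples at -0.08 to 0.05. With 3 samples per group these values cannot decide whether the replicate number pairs samples, and the main fit did not pair them. A fit with that number as a block called 2296 genes, 1534 of them lower and 762 higher, with 2 of the 50 lower and 4 higher, where B9D1 (adjusted p = 0.016) took the place of IFT46 (0.0693).

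Of the 50 genes, 20 changed sign in at least 1 alternative, none of them past the threshold. Under quantile normalization these were B9D2 (0.0076), BBS5 (0.026), CLUAP1 (0.066), IFT122 (0.013), IFT140 (0.077), IFT27 (0.0024), MKS1 (0.13), NPHP4 (0.021), RPGRIP1L (0.11) and TCTN2 (0.014). At the same total they were BBS1 (-0.013), IFT172 (-0.072), IFT22 (-0.045), IFT80 (-0.12), IFT81 (-0.12), TCTN3 (-0.086), TRAF3IP1 (-0.14), TTC21B (-0.0058) and WDR19 (-0.018), and without mitochondrial genes in the total IFT80 (-0.037), IFT81 (-0.031) and TRAF3IP1 (-0.051). Median-of-ratios scaling turned MKS1 (0.047) and RPGRIP1L (0.027), and array weights MKS1 (0.011), RPGRIP1L (0.054) and TCTN2 (0.049). With 1 sample left out, ARL6 ranged from -0.0053 to 0.36, B9D2 from -0.36 to 0.12, CLUAP1 from -0.21 to 0.060, IFT122 from -0.23 to 0.034, IFT140 from -0.22 to 0.051, IFT172 from -0.083 to 0.20, IFT27 from -0.26 to 0.098, IFT80 from -0.089 to 0.21, IFT81 from -0.027 to 0.11, MKS1 from -0.14 to 0.20, NPHP4 from -0.29 to 0.021, RPGRIP1L from -0.094 to 0.080, TRAF3IP1 from -0.054 to 0.083 and TTC21B from -0.078 to 0.35. The cause of these changes was not tested.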

Other observations

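The factors known to drive ciliary genes were mostly low in these cells. FOXJ1, the master factor of motile cilia, and RFX4, RFX6 and RFX8 were at 0 in all 6 samples, and RFX3 was below the filter. RFX1, RFX2, RFX5 and RFX7 were tested and none of the 4 passed. RFX2 went from 2.11 ± 0.197 to 1.34 ± 0.298 FPKM (limma adjusted p = 0.094), and RFX7 at 3.19 ± 0.307 and 4.36 ± 0.723 FPKM (adjusted p = 0.124). In both genes the groups did not overlap. Of 14 motile cilium genes, CCDC40 and CCNO passed the filter and neither passed the test. DNAI2, RSPH1 and TEKT1 were at 0 in all samples.

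Neighbouring genes share bases with 14 of the 50 genes, in 16 pairs, 14 of them on opposite strands and 5 of those with starts within 1000 bases. IFT80 starts beside SMC4, a condensin subunit used in mitosis. SMC4 fell from 25.1 ± 1.301 to 8.56 ± 2.83 FPKM (limma log2 fold change -1.60, adjusted p = 0.000592), while IFT80 was at 9.04 ± 0.682 and 9.30 ± 1.95 FPKM. IFT20 overlaps TMEM97 by 361 bases, and TMEM97 fell (-0.75, adjusted p = 0.00259) while IFT20 was at 0.18. IFT140 overlaps TELO2 by 31 bases, and TELO2 fell (-0.56, adjusted p = 0.01) while IFT140 was at -0.06. How reads in shared bases were divided is not given in the sources used here.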
